A study of Mus musculus with 2 samples.

Results

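The 40 genes described here encode the proteins that carry a signal from the T cell receptor into the cell: 5 tyrosine kinases, 9 adaptors, 9 effectors, 11 phosphatases and other attenuators, and 6 proteins of the cytoskeleton or of calcium entry. The rule was a list of names with no threshold on a measured value, drawn up with earlier results of these data known, and the genes make up 40 of the 21853 protein-coding genes of the GENCODE M21 annotation. The receptor has no enzyme activity of its own. When it meets its ligand, Lck phosphorylates its CD3 tails, Zap70 docks there and phosphorylates the adaptors Lat and Lcp2, and phospholipase C gamma, Ras activators, protein kinase C and the Bcl10 and Malt1 module are recruited to them, while phosphatases and adaptors that recruit ubiquitin ligases hold the signal down. Regulatory T cells depend on receptor signalling for their development in the thymus and for their suppressive function.

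Accessible chromatin was measured by ATAC-seq, in which a transposase inserts sequencing adaptors into DNA that is free of nucleosomes, in mouse regulatory T cells labelled as primary cells of strain C57BL/6NJ. The series has 1 group of 2 libraries, labelled as biological replicates 1 and 2. The labels give both 1 donor, so they may come from 1 animal, and differences between them may be no more than technical. Age is given as unknown, no treatment or allele is given, and the names of the regions include 72 hours. They also include ASTARR and insert, terms that no source used here explains, and whether the lists come from inserts of another assay was not established. Replicate 1 held 68903 regions and replicate 2 held 78262. These lists hold no read counts, so the depth behind them is unknown, and with 1 group there is no comparison of conditions and no p-value.

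A promoter was counted as accessible where a region overlapped the 1 kb to either side of any start site of a protein-coding transcript. A locus was the gene with 10 kb added at each end, and a replicated region was a replicate 1 region overlapped by at least 1 bp in replicate 2. Distal means over 1 kb from every protein-coding start site. Long genes hold more regions than short ones, so each gene was set beside the mean of the 200 protein-coding genes nearest to it in locus length, 100 shorter and 100 longer, and the count divided by that mean is called its ratio. The authors gave each region a signal value, whose scale is not stated, and a −log10 q. Both are used to rank regions within a list, by value or as percentiles. Values are also printed as the authors gave them, and whether they compare between the 2 lists is unknown.

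The labelled cell type was checked on marker genes. The promoters of 6 of 6 T cell markers (Cd3d, Cd3e, Cd3g, Cd247, Cd2, Cd5) and 6 of 6 regulatory T cell markers (Foxp3, Il2ra, Ctla4, Ikzf2, Ikzf4, Tnfrsf18) were accessible in both replicates, against 3 of 6 B cell, 3 of 6 CD8 T and NK cell, 1 of 6 myeloid and 0 of 6 hepatocyte markers. Among the defining genes, Cd79a, Ms4a1, Cd8a, Ncr1, Gzma, Lyz2, Csf1r and Itgam had no promoter region in either replicate, while Cd79b, Pax5, Ebf1, Cd8b1, Klrb1c, Eomes and Cd14 had one in both. What part other cells have in the member regions was not tested.

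Every one of the 40 genes had an accessible promoter, in replicate 1, in replicate 2 and in both. Over all protein-coding genes the share accessible in both was 63.3%. The loci also held many regions away from the start sites. In 39 of 40 loci the number of replicated regions was above the mean of the length neighbours, as it was for 45.3% of all genes, and in 26 of 40 it was at or above the 90th percentile of those neighbours, against 9.90% of all genes. The median ratio was 2.31, and 2.27 and 2.30 when replicate 1 or replicate 2 was counted alone, while the median over all genes was 0.871. Malt1, at 0.956, was the 1 gene not above its neighbours, and it stood at 1.12 and 1.19 in replicates 1 and 2 alone. Among the 50000 strongest regions of each list by signal, the promoter count was 35 of 40, against 58.1% of all genes. The count at or above the 90th percentile was then 17 of 40, against 9.80% of all genes.

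The neighbours of a gene include silent genes, so the count was repeated against the 200 nearest genes whose promoters were accessible. By that measure, added after the first results had been seen, 38 of 40 members stood above the mean, against 45.5% of the 13830 genes with an accessible promoter. The median ratio fell to 1.86, and Bcl10 (0.972) joined Malt1 (0.840) below 1.

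**Figure D1:**
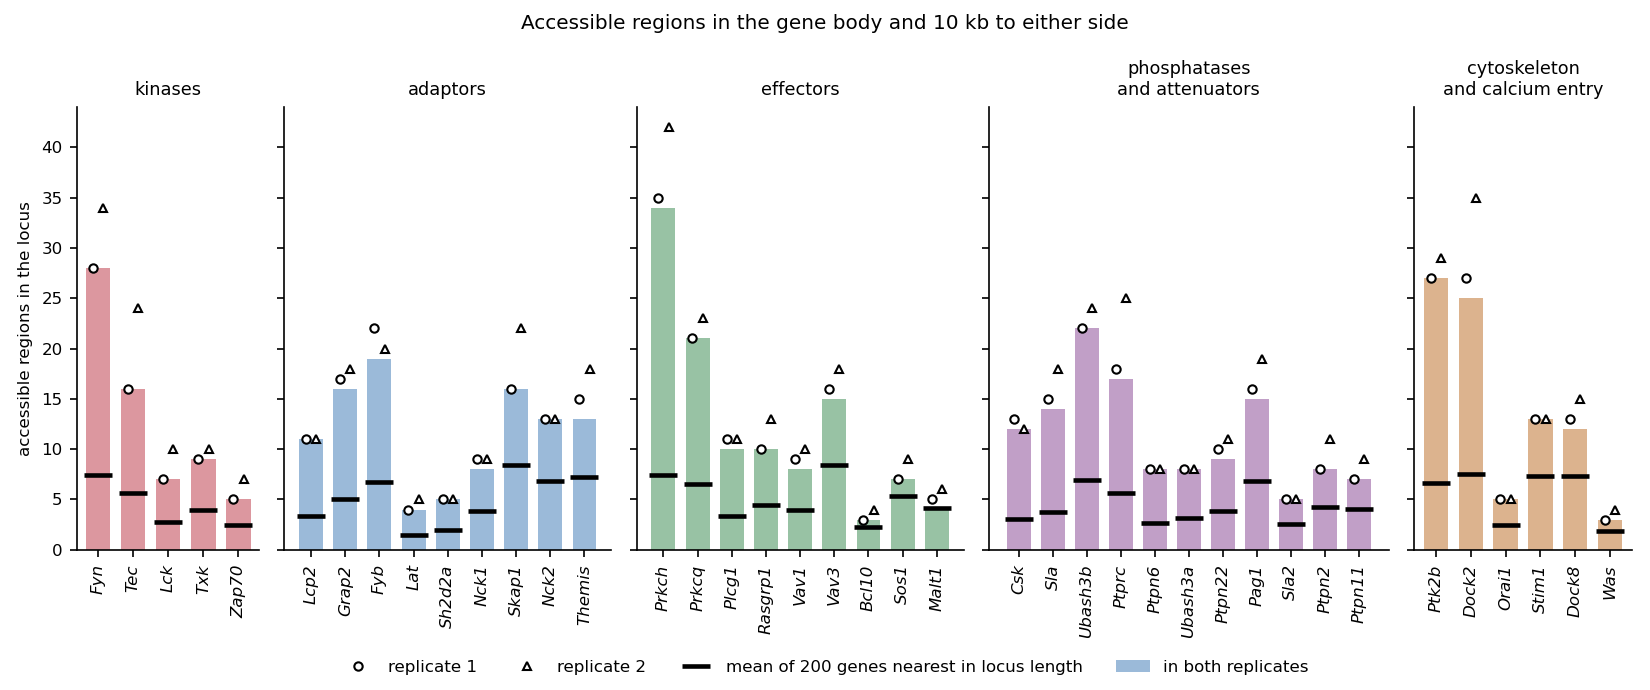
Accessible regions in each of the 40 loci (gene body and 10 kb to either side), by role. Bars are regions found in both replicates, circles and triangles are the counts of replicate 1 and replicate 2, and horizontal marks are the mean of the 200 genes nearest in locus length. The bar of every gene other than Malt1 rises above its mark, with Prkch (34 against 7.45) the highest.

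The 2 libraries gave much the same picture of these loci. They listed 512 regions in replicate 1 and 593 in replicate 2 when each locus was counted, and 492 replicate 1 regions (96.1%) were replicated, against 93.2% of all replicate 1 regions. In 24 loci all replicate 1 regions were replicated. Replicate 2, the longer list, had more regions in 28 loci, the same number in 10 and fewer in 2. The summits of matched regions lay a median of 17 bp apart. The 492 are 488 different regions, because 4 lie in the loci of both Txk and Tec, which are neighbours on chromosome 5.

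**Figure D2:**
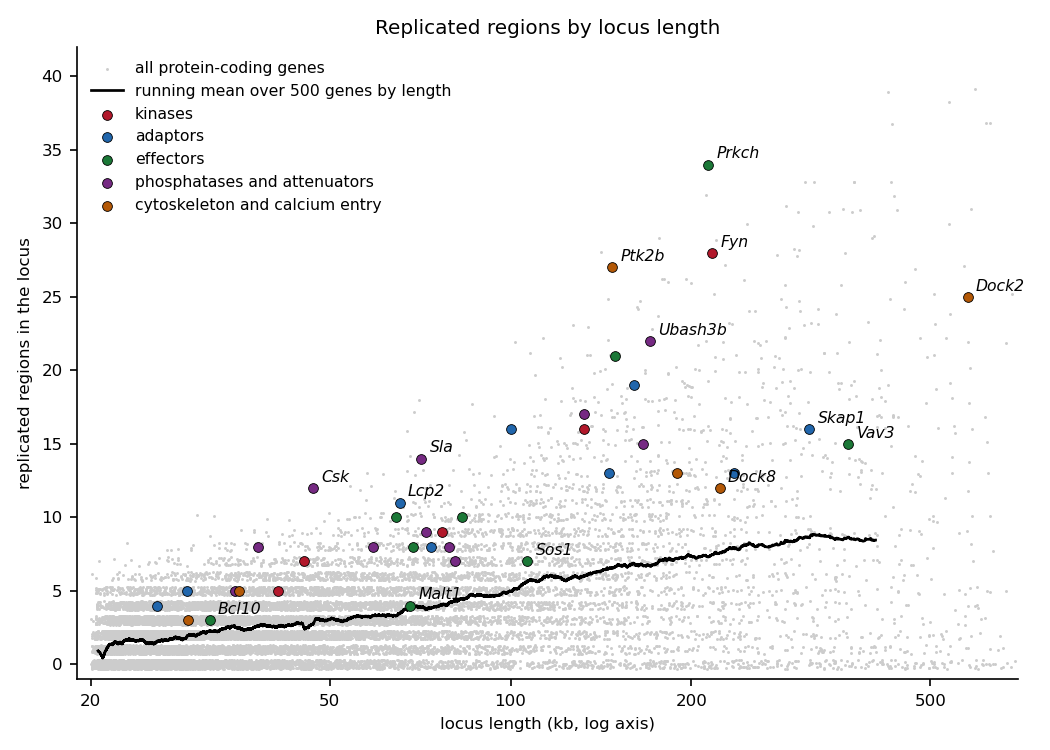
Replicated regions against locus length (kb, log axis) for all protein-coding genes (grey, up to 700 kb, spread vertically by up to 0.3 for visibility) and the 40 members (coloured by role). The black line is a running mean over 500 genes ordered by length. The members lie above the line across the whole range of lengths, and Malt1 lies on it.

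CpG content divides the members evenly, much as it does all protein-coding genes (49.25% CpG-rich and 50.75% CpG-poor). A promoter was called CpG-rich where GC was at least 50% and CpG at least 0.6 of that expected from base composition, over 250 bp to either side of the main start. Promoters of this kind are accessible in most tissues, whereas CpG-poor promoters tend to be accessible only where the gene is used. Of the members 20 were CpG-rich, all accessible, against 93.8% of all CpG-rich genes. The other 20 were CpG-poor, and all were accessible against 33.7% of CpG-poor genes. The class was scored at the main start and accessibility at any start, so the 2 calls can refer to different promoters of a gene. In Grap2 the main start had a region in replicate 2 alone, and the start accessible in both lay 50.9 kb upstream. The CpG-poor class held 3 of 5 kinases (Lck, Zap70, Txk), 6 of 9 adaptors (Lat, Lcp2, Grap2, Fyb, Sh2d2a, Themis), 7 of 11 phosphatases and attenuators (Ptprc, Ptpn6, Ptpn22, Ubash3a, Ubash3b, Sla, Sla2) and 3 of 6 cytoskeletal genes (Was, Dock2, Ptk2b). Among the effectors it held 1 of 9, Vav1. The median ratio of regions to length neighbours was 2.59 in the CpG-poor members, against 0.409 over all CpG-poor genes and 1.29 over those with an accessible promoter. In the CpG-rich members it was 1.99, against 1.18 and 1.21.

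Sequences show what the strongest regions look like. The first 3 sequences are the distal regions of highest replicate 1 signal in the loci with the 3 highest ratios. The other 4 are promoter regions: both promoters of Lck, the main promoter of Zap70, and that of Was, which was added after its sequence matches had been seen. Each gives up to 100 bases to either side of the replicate 1 summit in GRCm38 (mm10), read in the direction of the gene and cut where an exon begins. Capitals mark matches to an ETS motif (CAGGAAG or CCGGAAG), a RUNX motif (TGTGGT) or an AP-1 motif (TGANTCA) on either strand, so that CTTCCTG and ACCACA are matches on the other strand. A match is a stretch of letters and not a measured binding site.
Prkch, downstream, chr12:73779288-73779488, + strand: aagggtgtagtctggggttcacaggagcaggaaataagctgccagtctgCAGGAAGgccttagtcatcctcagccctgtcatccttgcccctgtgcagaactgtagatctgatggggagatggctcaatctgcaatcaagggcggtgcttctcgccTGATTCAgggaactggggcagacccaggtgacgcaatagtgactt
Ptk2b, intron 2, chr14:66199828-66200028, − strand: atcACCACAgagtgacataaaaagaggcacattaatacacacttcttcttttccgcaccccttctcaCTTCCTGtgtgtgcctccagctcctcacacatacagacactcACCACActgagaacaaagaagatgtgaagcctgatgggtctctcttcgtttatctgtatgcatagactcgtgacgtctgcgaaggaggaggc
Csk, intron 1, chr9:57640536-57640736, − strand: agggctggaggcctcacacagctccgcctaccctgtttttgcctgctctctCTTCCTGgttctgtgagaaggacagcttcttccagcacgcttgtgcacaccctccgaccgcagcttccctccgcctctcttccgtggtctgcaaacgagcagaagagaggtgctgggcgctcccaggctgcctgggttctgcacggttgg
Lck, distal promoter, chr4:129573642-129573835, − strand: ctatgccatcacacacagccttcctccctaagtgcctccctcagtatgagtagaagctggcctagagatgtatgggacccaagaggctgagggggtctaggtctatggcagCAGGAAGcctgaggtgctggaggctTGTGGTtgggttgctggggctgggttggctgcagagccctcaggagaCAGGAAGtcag
Lck, proximal promoter, chr4:129558492-129558692, − strand: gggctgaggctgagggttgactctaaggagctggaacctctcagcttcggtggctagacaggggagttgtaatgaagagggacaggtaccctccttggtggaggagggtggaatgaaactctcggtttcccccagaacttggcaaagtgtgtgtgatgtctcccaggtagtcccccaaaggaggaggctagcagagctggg
Zap70, promoter, chr1:36761093-36761293, + strand: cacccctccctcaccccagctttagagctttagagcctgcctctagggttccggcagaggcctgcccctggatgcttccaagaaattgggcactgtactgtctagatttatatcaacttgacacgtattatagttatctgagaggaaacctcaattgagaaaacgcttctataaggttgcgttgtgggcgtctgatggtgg
Was, promoter, chrX:8090499-8090605, − strand: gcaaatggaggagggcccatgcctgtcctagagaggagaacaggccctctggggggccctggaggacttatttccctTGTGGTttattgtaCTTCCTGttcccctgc

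Among these, the distal Lck promoter held 3 matches, 2 of them ETS (bases 112 to 118 and 184 to 190) and 1 RUNX (bases 137 to 142), while the window at the proximal Lck promoter and that of Zap70 held none. The Was window held a RUNX match at bases 78 to 83 and an ETS match at bases 92 to 98. The Ptk2b region held 2 RUNX matches and 1 ETS match, the Prkch region 1 ETS and 1 AP-1 match, and the Csk region 1 ETS match. In the 419 distal replicated regions of the member loci, CAGGAAG lay within 100 bp of the summit in 19.8%, against 16.7% of the 49704 distal replicated regions of the genome. TGTGGT was found in 26.7% against 23.1%, and TGANTCA in 92 of 419 against 22.4%. Each share differed little from its background, which also includes regions outside protein-coding loci.

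For promoters the outcome depended on the window searched. Within 250 bp of the main start, CAGGAAG was found in 14 of 40 members (35.0%) against 18.2% of genes with an accessible promoter, and TGTGGT in 8 of 40 against 18.7%, so TGTGGT showed next to no difference. Around the summits both differed. Of their 57 replicated promoter regions, 12 (21.1%), in 10 genes, held CAGGAAG within 100 bp of the summit, against 1449 of the 14468 replicated regions at protein-coding start sites. TGTGGT was also found in 12 (21.1%), in 11 genes, against 9.03%. Of the members 20 of 40 are CpG-poor, but only 3739 of all 13830 genes with an accessible promoter are. The comparison was therefore repeated among regions at any start site of CpG-poor genes and of no CpG-rich gene. CAGGAAG then stood at 7 of 31 (22.6%) against 14.2%, and TGTGGT at 10 of 31 (32.3%) against 13.3%. Csk, Lat, Lck and Was were in both lists. CCGGAAG, an ETS form common in CpG-rich promoters, was found in 2 of 57 (3.51%) against 12.8%. TGANTCA was found in 2 of 57 (3.51%) against 5.18%. Among the regions of CpG-poor genes alone, CCGGAAG stood at 0 of 31 against 6.00% and TGANTCA at 1 of 31 (3.23%) against 9.07%. These summit windows were searched after other results had been seen, and no test was made.

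Promoter strength was not high among the members. By signal, the strongest promoter region of the members had a median percentile of 63.3 in replicate 1 and 65.6 in replicate 2, below the 81.7 and 83.2 of all genes with an accessible promoter. By −log10 q the medians were 84.9 and 86.2 against 87.4 and 88.8. Within the CpG-poor class the members lay lower by signal (56.0 and 60.6 against 69.9 and 73.3) but higher by −log10 q (83.3 and 85.4 against 76.3 and 78.5), so the order depends on the measure. Bcl10, the adaptor that links antigen receptors to NF-kB, was near the top with a promoter signal of 15.5 and 16.7 (percentiles 96.4 and 98.5). Sla, Ubash3a, Prkcq and Skap1 were low in both replicates, with promoter signals between 3.18 and 4.28 (percentiles from 13.2 to 30.3).

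**Figure D3:**
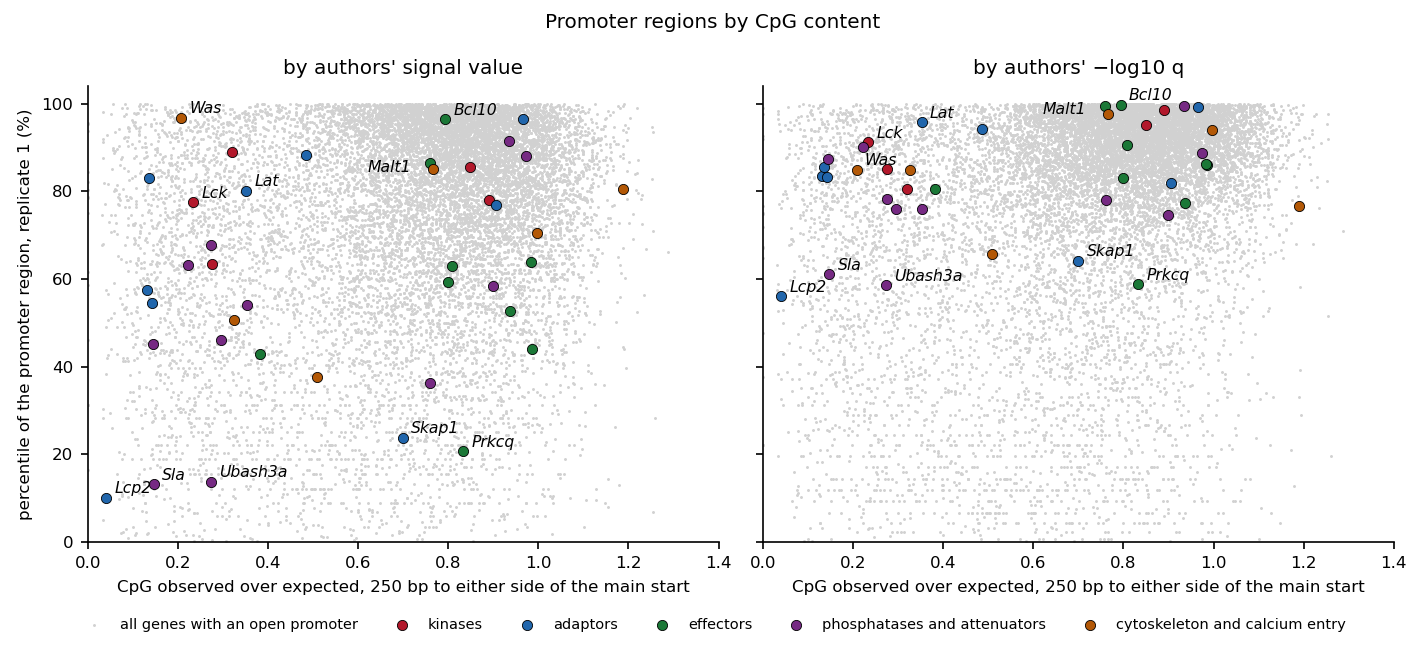
Percentile of the strongest promoter region of each gene in replicate 1, by signal (left) and by −log10 q (right), against CpG observed over expected around the main start. Grey points are all genes with an accessible promoter, and coloured points are the 40 members by role. By signal the members spread from Lcp2 (10.1) to Was (96.8), and by −log10 q none lies below 56.0.

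Most of the excess lay in introns, while the highest ratio was found upstream of the genes. Of the 492 entries, 344 (69.9%) lay in introns, where the length neighbours would hold 112, a ratio of 3.07. Upstream there were 35 against 10.5 (3.32 times) and downstream 35 against 16.3 (2.15 times). The members' own promoters held 57 regions against 36.4. Exons held 8 against 5.34, and promoters of other genes inside the loci 13 against 12.3, which was close to the neighbours. Counting distal regions alone, 422 stood against 144, a ratio of 2.92, and 39 members were above their neighbours, against 40.3% of all genes. Of the 344 intronic entries, 135 (39.2%) lay in intron 1 of the main transcript, against 26.5% in the length neighbours and 27.4% over all genes.

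**Figure D4:**
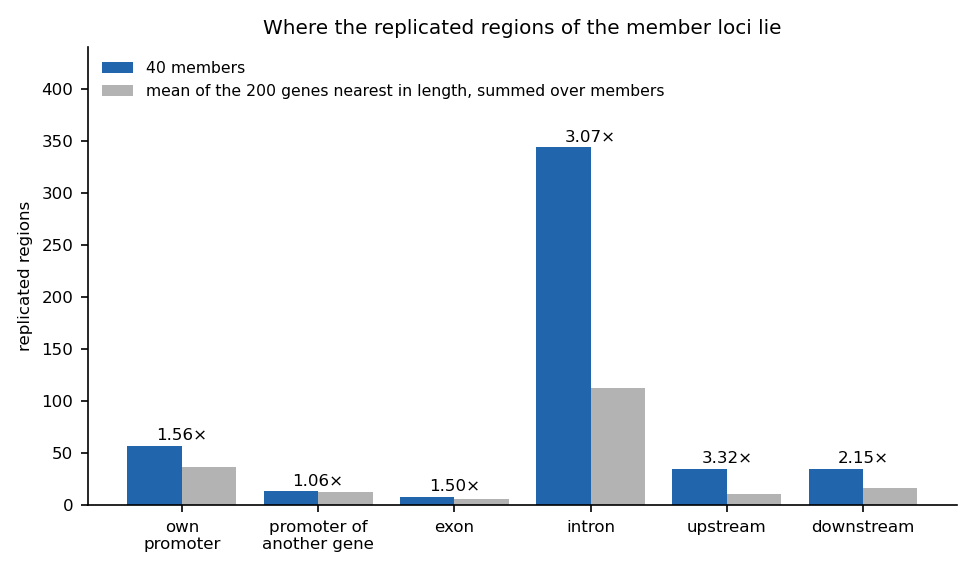
Replicated regions of the 40 member loci by place (blue), beside the number that their length neighbours hold (grey, the mean of the 200 genes nearest in length, summed over members). The numbers above the bars are ratios. By ratio, introns (344 against 112) and upstream flanks (35 against 10.5) stand out, and promoters of other genes (13 against 12.3) do not.

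In many of these loci the strongest region was not the promoter. By signal, a distal region exceeded the gene's own promoter in 27 of 40 members, against 27.8% of genes with an accessible promoter and 36.5% of the length neighbours with one. By −log10 q this held for 20 of 40, against 19.8% and 24.9%. These counts were not adjusted for the number of distal regions, 422 in member loci against 144 in length neighbours. Nor were they adjusted for CpG class, with 20 of 40 members CpG-poor against 3739 of the 13830 genes with an accessible promoter. What part either has in the counts was not tested. The distal regions themselves were not unusually strong. Their median signal percentile was 38.4 in replicate 1, below the 45.1 of distal regions in all gene loci, and their median −log10 q percentile was 51.0, above the 45.3.

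Among the kinases, Lck and Fyn of the Src family start the cascade. The Lck locus (chr4:129548344-129573641, − strand, with its flanks 45.3 kb) held 7 replicated regions (7 in replicate 1 and 10 in replicate 2), against a neighbour mean of 2.81, a ratio of 2.49. Lck is transcribed from a proximal promoter, known for its use in thymocytes, and a distal one, known for its use in mature T cells. Both were accessible. The region at the proximal start had a signal of 10.5 and 10.7 in replicates 1 and 2, and that at the distal start, at −15.25 kb, 4.24 and 4.56. The region at −16.99 kb, upstream of the distal start, had a −log10 q of 164 and 222, above those of the proximal start (154.7 and 250.9) in replicate 1 but not in replicate 2. The strongest region in the Lck locus (signal 12.9 and 13.2) lay at the promoter of another gene, 15.6 kb downstream of the proximal start.

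Fyn, the second Src-family kinase of T cells, held 28 replicated regions in 217 kb (28 and 34 in the single replicates, 7.43 in its neighbours), a ratio of 3.77 and the fourth highest. Of its 4 groups of start sites, the first 3 were accessible in both replicates and the most downstream, at 142 kb, in neither. Zap70 (chr1:36761798-36782818, + strand) binds the phosphorylated CD3 tails. It held 5 replicated regions (5 and 7) against 2.44. Its main start had a region of signal 8.23 and 7.48 and its second start, 5.14 kb inside the gene, one of 6.63 and 6.56, so both starts were accessible. The Zap70 window is centred on the replicate 1 summit at −605 bp, and the replicate 2 summit lay at −64 bp. The Tec-family kinases Txk and Tec act on phospholipase C gamma. Txk held 9 replicated regions (9 and 10) and a ratio of 2.28, and Tec 16 (16 and 24) and a ratio of 2.85, with the 4 shared regions counted in both.

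**Figure D5:**
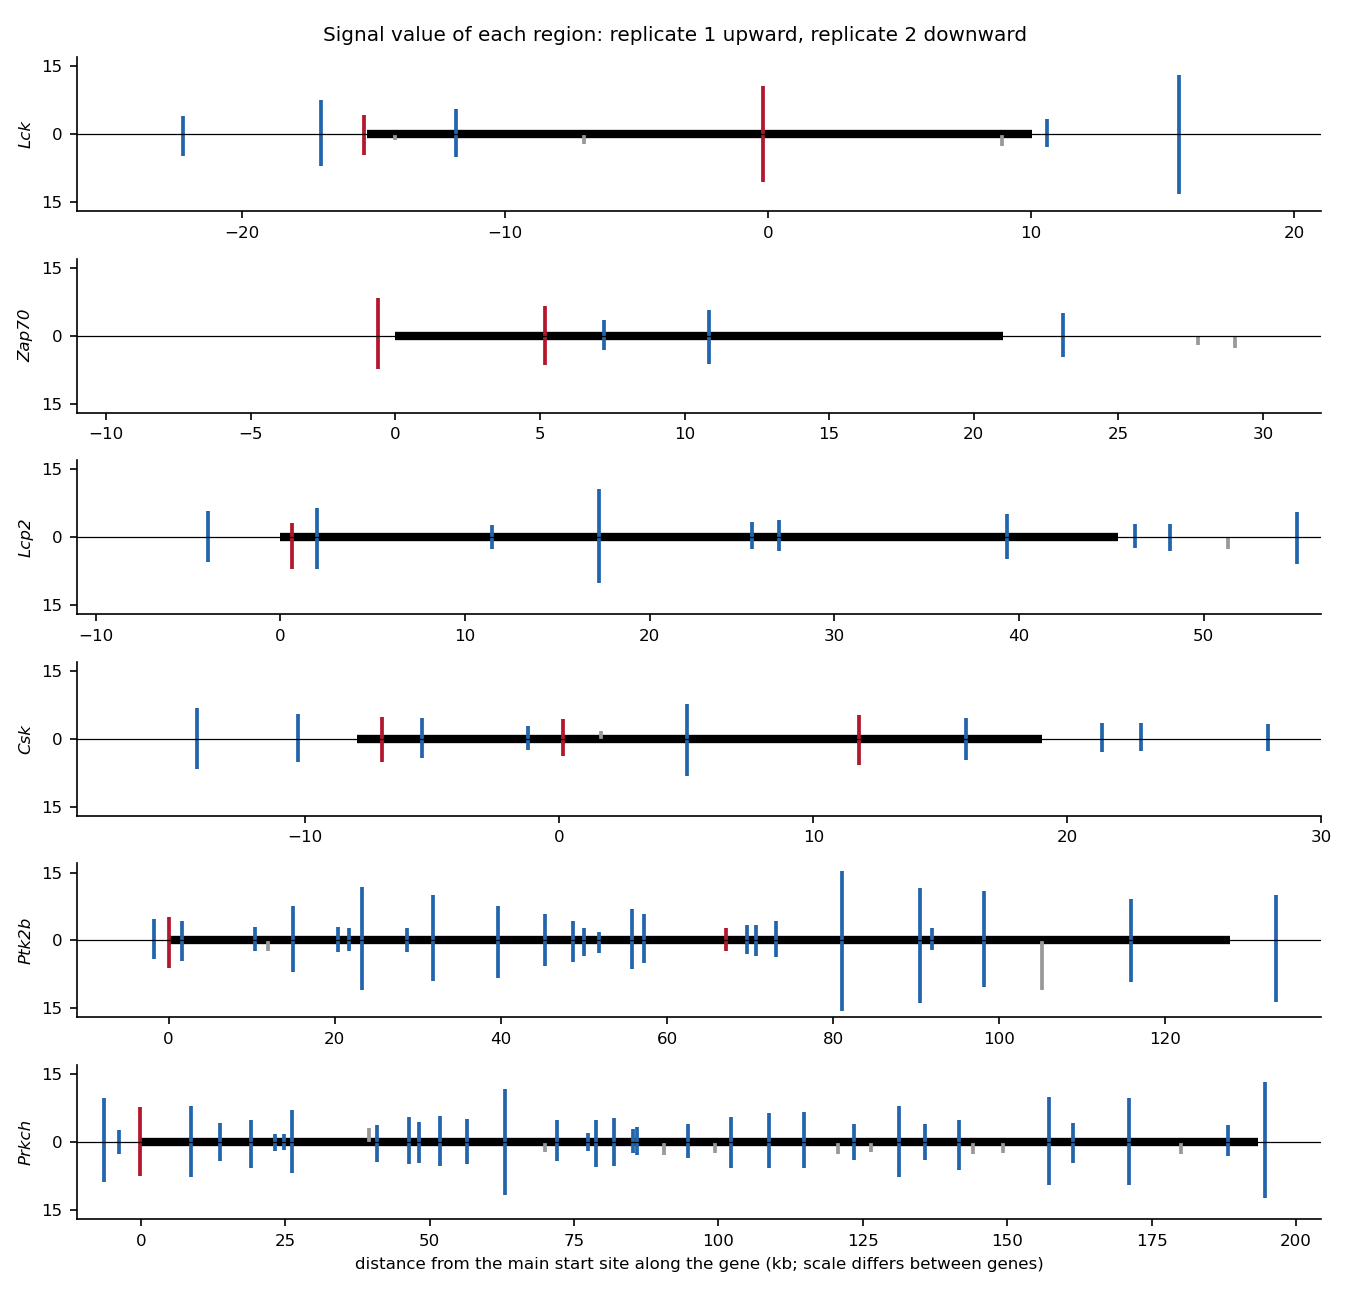
Regions in 6 member loci by distance from the main start along the gene (kb; the scale differs between genes). Bars upward are the signal of replicate 1 and bars downward that of replicate 2. Red marks regions at the gene's own start sites, blue all other replicated regions, grey regions of 1 replicate alone, and the thick black line is the gene body. Zap70 has 5 replicated regions, and Ptk2b and Prkch have 27 and 34 spread over the whole gene.

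Lat, the membrane adaptor on which the signalling complex assembles, is a short gene (chr7:126363824-126369570, − strand). It held 4 replicated regions (4 and 5) against 1.51, a ratio of 2.66 that fell to 1.44 against neighbours with an accessible promoter, and its promoter region reached a signal of 11.1 and 11.2. Lcp2, also called SLP-76 (chr11:34046920-34092295, + strand), pairs with Lat. Its locus held 11 regions in each replicate, and all 11 of replicate 1 and 10 of replicate 2 had a match in the other, against a neighbour mean of 3.36, a ratio of 3.27. The strongest lay in intron 3, 17.3 kb from the start, with a signal of 10.8 and 10.2, while the promoter region reached 3.19 in replicate 1. In replicate 2 that region was joined with its neighbour in intron 1 into 1 entry of signal 7.06, so the Lcp2 promoter value differs between the lists because their borders differ. Only 1 of the 11 regions lies outside the body of 4930469K13Rik, a gene on the other strand that spans Lcp2, and position alone does not assign them to either gene. Without regions in the body of another gene the ratio of Lcp2 was 0.355.

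Of the other adaptors, Fyb, which with Skap1 couples the receptor to integrins, held 19 replicated regions (22 and 20) and a ratio of 2.80. Its highest promoter signal, 12.9 and 13.4, was at a start 10.3 kb upstream of the main one, where the value was 4.50 and 4.70. Grap2, which links Lcp2 to Lat, held 16 (17 and 18) and a ratio of 3.18. The region at its annotated main start was found in replicate 2 alone (signal 4.33), and the start 50.9 kb upstream was accessible in both (7.44 and 7.85). Skap1 held 16 (16 and 22), but its locus spans 315 kb and its ratio was 1.90. Nck1 and Nck2, which connect the receptor with actin, held 8 and 13, against 3.81 and 6.83 in their neighbours. The promoter of Nck1 had a signal of 15.5 and 14.9, that of Nck2 10.4 and 9.83. Themis, an adaptor named for its part in thymocyte selection, held 13 regions (15 and 18) and a ratio of 1.81, with 1 of the 10 strongest distal regions of the set in its intron 4 (14.2 and 14.5). Sh2d2a, an adaptor that binds Lck, held 5 in each replicate and a ratio of 2.50.

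The effectors held both the highest and the lowest ratios. Prkch (chr12:73584796-73778185, + strand) encodes the eta form of protein kinase C. It held 34 replicated regions in 213 kb (35 and 42 in the single replicates) against 7.45, a ratio of 4.56 and the highest of the 40. They were spread over the gene, and the strongest (13.3 and 12.3) lay just downstream of it, 195 kb from the start. Prkcq, the theta form that gathers at the immune synapse, held 21 (21 and 23) and a ratio of 3.19, with a promoter signal of 3.98 and 3.61. Plcg1 (chr2:160731300-160775760, + strand) encodes the phospholipase that makes the second messengers of the pathway. It held 10 (11 and 11) and a ratio of 2.95. The promoter of Plcg1 had a signal of 5.96 and 5.82, 6 regions lay in its intron 1, and the strongest (9.35 and 9.56) in intron 22, where the body of Zhx3 overlaps. Rasgrp1, which activates Ras downstream of diacylglycerol, held 10 (10 and 13) and a ratio of 2.25.

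Vav1 and Vav3, exchange factors for Rac, had ratios of 2.01 and 1.78, with 8 and 15 replicated regions. Sos1, a second Ras activator, held 7 (7 and 9), a ratio of 1.31. Its strongest region, the strongest distal region of all member loci (16.98 and 16.88), lay downstream in the body of Arhgef33. Bcl10 held 3 (3 and 4), a ratio of 1.35, and Malt1 4 (5 and 6), a ratio of 0.956. These 2 act together in the complex that leads to NF-kB, and they combined few regions with strong ones: the Malt1 promoter had a −log10 q of 364 and 487 and that of Bcl10 415 and 657, the 2 highest of the set in replicate 1, and each locus had 1 of the 10 strongest distal regions, in intron 12 of Malt1 (13.7 and 13.8) and 7.15 kb upstream of Bcl10 (14.2 and 16.3).

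The genes that restrain the signal were also rich in regions. The median ratio was 2.52 for the 11 phosphatases and attenuators, 2.49 for the 5 kinases, 2.50 for the 9 adaptors, 2.01 for the 9 effectors and 1.92 for the 6 cytoskeletal and calcium entry genes. The ranges of these groups overlap. Csk (chr9:57626646-57653631, − strand) encodes the kinase that inactivates Lck and Fyn. It held 12 replicated regions in only 47.0 kb (13 and 12) against 3.09, a ratio of 3.89 and the third highest. The Csk intron 1 region whose sequence is given had the highest −log10 q of any distal region in the member loci, 238 and 385, against 71.2 and 77.1 at the main start. Pag1, which anchors Csk at the membrane, held 15 (16 and 19) and a ratio of 2.19.

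Ptprc (chr1:138062861-138175708, − strand) encodes CD45, the phosphatase that keeps Lck active. It held 17 replicated regions (18 and 25) against 5.62, a ratio of 3.03. A single group of starts had a signal of 6.14 and 5.48, and a region in intron 23, 98.5 kb from the start, had 15.02 and 14.36. 11 of the regions lay in intron 2, none of them above the intron 23 region in signal. Ptpn6, or SHP-1, held 8 in each replicate and a ratio of 3.002. Its main start, 5.56 kb downstream of the first, had a signal of 8.21 and 8.15, and the first start 2.66 and 2.52. Ptpn22, which acts with Csk, held 9 (10 and 11) and a ratio of 2.34. Ptpn2 and Ptpn11 had ratios of 1.87 and 1.73.

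Ubash3a and Ubash3b, phosphatase-like proteins that dampen Zap70, held 8 and 22 replicated regions and ratios of 2.52 and 3.16. The promoter of Ubash3a was among the weakest (3.48 and 3.18), while its intron 6 held a region of −log10 q 236 and 365. Sla and Sla2, adaptors that promote loss of the receptor from the surface, had ratios of 3.73 and 1.94. Sla held 14 replicated regions (15 and 18) against 3.76, but the whole gene lies inside Tg, the thyroglobulin gene on the other strand, and no region of it lies outside the body of Tg. The Sla regions are also weak: among the 50000 strongest regions of each list by signal, 2 were counted in the locus and the ratio was 0.778.

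Of the cytoskeletal and calcium entry genes, Ptk2b (chr14:66153257-66281052, − strand) encodes Pyk2, a relative of focal adhesion kinase. It held 27 replicated regions (27 and 29) against 6.64, a ratio of 4.07 and the second highest. The intron 2 region whose sequence is given had a signal of 15.3 and 15.6 and a −log10 q of 214 and 350, against 5.28 and 6.14 and 40.4 and 76.7 at the promoter. Dock2, a Rac activator needed for lymphocyte migration, held 25 (27 and 35) in 577 kb and a ratio of 3.34, or 1.78 against neighbours with an accessible promoter. Dock8, mutated in a human immunodeficiency, held 12 (13 and 15) and a ratio of 1.63. Was, which drives actin branching, held 3 (3 and 4) in 29.1 kb, of which 1 is the promoter of Suv39h1, with a ratio of 1.57, or 1.03 against neighbours with an accessible promoter. All 3 were strong, with 15.7 and 15.6 at the Was promoter and 16.8 and 13.9 at 6.44 kb upstream. Stim1 and Orai1, the calcium sensor and channel of store-operated entry, held 13 and 5 in each replicate, with ratios of 1.78 and 2.07. The region in intron 2 of Stim1 was 1 of the 10 strongest distal regions in replicate 1, with a signal of 14.9, and had a signal of 10.3 in replicate 2.

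Regions were found at some alternative starts and not at others. Of the 40 genes, 20 have start sites over 1 kb apart, in 53 groups. Of these, 36 (67.9%) were accessible in both replicates and 15 (28.3%) in neither. Over the 5001 genes with an accessible promoter and starts as far apart, the shares were 54.7% and 42.2%. All starts were accessible in 5 of the 20 genes (Lck, Zap70, Txk, Tec and Stim1), against 20.2% of those 5001. At least 1 start had no region in either replicate in 13 of 20, against 75.3%: Fyn, Plcg1, Vav3, Nck1, Nck2, Csk, Ptpn6, Ubash3a, Ubash3b, Fyb, Prkcq, Ptk2b and Dock2. In the other 2, Grap2 and Sla, 1 start was accessible in replicate 2 alone.

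A list of 35 other genes of the same pathway gave a lower level. All 35 promoters were accessible in both replicates, 32 loci were above the mean of their length neighbours and 14 at or above the 90th percentile, with a median ratio of 1.81 against the 2.31 of the members. The list shares 2 genes with the family relatives of the members. Itpr1, a calcium release channel (3.73), had the highest ratio, and that of Dgkz, which removes diacylglycerol (3.20), was also high. Ppp3ca, a calcineurin subunit (0.753), Hras (0.725) and Gab2 (0.917) were below 1.

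The families of the members allow a closer comparison, since relatives share domains but often work in other cells. Of 48 relatives, 41 had an accessible promoter in both replicates, 34 were above their length neighbours and 12 at or above the 90th percentile, with a median ratio of 1.49. In 6 relatives no promoter region was found in either replicate: the B cell kinases Blk and Btk, the kinases Frk and Bmx, Clnk, a relative of Lcp2, and Themis3. Dock1 had one in replicate 1 alone. Of the relatives named here after their values were seen, Plcg2 stood at 0.299 against 2.95 for Plcg1, Syk at 1.496 against 2.05 for Zap70, and Lyn at 0.607 against 2.49 for Lck and 3.77 for Fyn. Other relatives were high: Grap stood at 3.44 against 3.18 for Grap2, and Prkca (4.02), Dock10 (3.16) and Ptpn1 (2.64) were above the median of the members.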

How the data were processed

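ATAC-seq regions of 2 libraries of mouse regulatory T cells were taken from the lists that the authors deposited, 1 per library and not pooled, on mm10 per the labels. The aligner, the caller and any shift for the transposase are unknown (not given in the sources used here), and a linked differentiation protocol was not read. Each region carries a signal value that the authors deposited with no stated scale, a −log10 p and −log10 q that the authors deposited, and a score that the authors deposited and that was not used. Signal and −log10 q were used for ranks and filters inside 1 list, and values are printed as given. The lowest −log10 q was 1.00 in both.

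Regions on chromosomes 1 to 19, X and Y (68832 and 78178) were joined to GENCODE M21 protein-coding genes on GRCm38 with Python 3.11.15, numpy 2.4.6, pandas 2.3.3 and pysam 0.24.0. The main start was that of the APPRIS principal transcript. Motifs were sought on both strands. The counting and length matching were tested on simulated data with known answers. No measured value entered the rule for the members, but the members, the gene lists, the families and the markers were chosen with earlier results of these data known. The CpG classes, the comparison with accessible length neighbours and the search of promoter summits were added after results had been seen. Values are given for core genes (Lck, Zap70, Lat, Lcp2, Plcg1, Ptprc), for the 2 members of each role with the most regions, the 8 highest and 5 lowest ratios, member pairs of a family, members with unevenly accessible starts, the 10 strongest distal regions, and relatives whose promoter call differed from the members of their family. Other members and relatives with values were named after these were seen. Alternatives changed the thresholds, overlap, windows, flanks, neighbours and replicates. 0 columns of other samples were present.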

Additional observations from a re-analysis of the deposited data

How the results depend on the processing

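The count of members with an accessible promoter was 40 in each replicate alone, and between 35 and 40 under the other alternatives. Over all genes the share ran from 58.1% to 65.3%. It was 35 among the 50000 strongest regions of each list by signal (without Lcp2, Prkcq, Skap1, Sla and Ubash3a) and 39 where the overlap had to cover 50% of both regions (without Lcp2). The count above length neighbours ran from 37 to 40, while the share of all genes ran from 31.4% to 47.4%. The 31.4% was against neighbours with an accessible promoter and includes genes without one. Over genes with an accessible promoter that share was 45.5%. The count at or above the 90th percentile was 17 among the 50000 strongest by signal (9.80% of all genes). It was between 21 and 28 otherwise (from 6.64% to 10.5% of all genes). The 6.64% too was against neighbours with an accessible promoter and includes genes without one. The median ratio of 2.31 was 2.27 to 2.30 with 1 replicate left out, 2.00 and 2.51 among the 50000 strongest by signal and by −log10 q, 2.42 with no flanks, 2.04 with 50 kb flanks, 2.36 and 2.27 with 50 and 1000 neighbours, and 2.67 without regions at start sites. In alternatives added after seeing the data it was 1.86 against neighbours with an accessible promoter and 2.51 without regions in the body of another gene. The median over all genes ran from 0.669, against neighbours with an accessible promoter, to 0.949, with 50 kb flanks.

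Of the single genes, 6 crossed a ratio of 1. Malt1 rose above it with −log10 q of 5 or more (1.05), among the 50000 strongest by signal (1.33) or by −log10 q (1.25), with the stricter overlap (1.02), in the single replicates (1.12 to 1.19), with 50 kb flanks (1.52), 1000 neighbours (1.08), no start site regions (1.05) and no regions in other genes (1.14). Bcl10 fell below it with no flanks (0.985), 50 kb flanks (0.953), no start site regions (0.935) and accessible neighbours (0.972). Sos1 did so with no flanks (0.908), Sla2 with 50 kb flanks (0.968), Sla among the 50000 strongest by signal (0.778) and without regions in other genes (0), and Lcp2 without regions in other genes (0.355). The shares of distal regions with a motif, relative to the background, moved by less than their 95% binomial interval under every alternative run. Even so, the side of the background changed for some of the motifs. Relative to it, NFAT stood at 0.909 but at 1.16 within 50 bp of the summit and 1.11 on replicate 2 summits, and TCF and LEF at 1.16 but at 0.937 and 1.72. AP-1, CAGGTG, IRF and STAT also crossed 1 under at least 1 alternative. Depth is unknown, so a missing region was not detected rather than shown to be closed. No paired analysis was possible because there is 1 group and no test.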

Other observations

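A CTCF motif, searched by its consensus of 12 positions, was found in 11 of the 419 distal regions of the member loci (2.63%) and in 3039 of all 49704 (6.11%), the motif furthest below its background among the 14 searched. Only 35242 of those 49704 lie in protein-coding loci, as all member regions do. Whether the shares differ from those of regions in such loci was not tested. The forkhead motif (TGTTTAC) stood at 13 of 419 (3.10%) against 2.33%, the NFAT motif (TGGAAAA) at 4.53% against 4.99%, the GC box (GGGCGG) at 5.49% against 7.29%, the E-boxes CAGCTG and CAGGTG at 11.2% against 13.4% and 15.8% against 15.5%, and the GATA motif (AGATAA) at 10.5% against 9.54%. The TCF and LEF motif (ATCAAAG) stood at 5.01% against 4.31%, the STAT motif (TTCNNNGAA) at 17.2% against 15.9%, the IRF motif (GAAANNGAA) at 9.31% against 8.73% and CCGGAAG at 2.15% against 1.91%. Of these, NFAT, TCF and LEF, CAGGTG, STAT and IRF changed sides of their background with the window or the replicate.

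Among the B cell markers, 3 had more regions than their length neighbours in these libraries of cells labelled regulatory T cells. Ebf1 held 19 replicated regions, 2.14 times its length neighbours. Cd79a held 5, 3.75 times its length neighbours, with no region at its own promoter. Cd79b held 4, 2.41 times its length neighbours.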
